A study of Mus musculus with 20 samples.

Results

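A set of 2082 regions entered the open chromatin lists of 3T3-L1 cells at 4 hours of adipogenic induction and was listed at every later time. 3T3-L1 is a mouse preadipocyte line that turns into adipocytes after hormonal induction. Open chromatin was mapped by DNase I hypersensitive site sequencing (DHS-seq), in which an enzyme cuts DNA where nucleosomes leave it accessible and the cut sites are sequenced. The regions were selected on the 6 deposited DHS peak lists. Overlapping peaks (1 bp or more) were merged into 46760 union regions, and the 2082 kept here have a peak at 4 hours, day 1, day 2 and day 6 and none on day 0 or at 2 hours. Their presence and absence in the DHS lists is therefore a choice and not a result.

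All libraries came from the same line. Cells were grown in DMEM with calf serum to 2 days past confluence, which is day 0, and were not yet induced then. They next received insulin, dexamethasone, 3-isobutyl-1-methylxanthine and serum of fetal bovine origin, so that 2 hours, 4 hours and day 1 are times in the full cocktail. On day 2 the medium was replaced by one with fetal bovine serum and insulin, and later by one with fetal bovine serum alone, in which the day 6 cells, labelled mature adipocytes, were kept. The same cells were profiled by chromatin immunoprecipitation sequencing (ChIP-seq) for C/EBPbeta (day 0, 2 hours, 4 hours, day 2), PPARgamma (day 2, day 6), RNA polymerase II (RNA Pol II; day 0, 4 hours), C/EBPdelta (day 0, 4 hours), and GR, Stat5a and RXR (4 hours). Each antibody and time is 1 library, so no difference between times can be set against replicate spread and no test was made. Intervals in parentheses are exact (Clopper-Pearson) 95% intervals for a share and Newcombe 95% intervals for a difference of shares. Both cover counting over regions in these libraries only.

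C/EBPbeta is a leucine zipper transcription factor that is present early in the differentiation of these cells and acts upstream of the gene for PPARgamma. PPARgamma is the nuclear receptor that drives and maintains the adipocyte state. It binds DNA together with RXR. RNA Pol II transcribes protein-coding genes, and its ChIP-seq peaks lie mostly at active or poised promoters, while C/EBPbeta and PPARgamma in fat cells bind largely at enhancers away from promoters.

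The lists differ in length, and this bears on the choice of regions. The day 0, 2 hours and day 6 DHS lists hold 9989, 9055 and 11936 peaks, against 31751 at 4 hours, 35389 on day 1 and 25097 on day 2. Read depths were not given in the sources used here. Absence from the short day 0 and 2 hours lists may therefore reflect depth or threshold, which was not tested. With every DHS list shortened by width to 9055 peaks, 225 regions met the rule, of which 202 overlapped one of the 2082. The border itself was clear by position. The 3 regions closest to a day 0 or 2 hours DHS peak lay 9, 41 and 63 bp from it, 47 regions (2.26%) lay within 500 bp and 1661 (79.8%) lay over 10 kb away. Among regions that missed the rule only through a day 0 or 2 hours peak, the smallest overlap of that peak with the later ones was 233 bp.

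Many of these regions carried RNA Pol II or C/EBPbeta before any of them was listed as open. On day 0, 1456 of the 2082 (69.9%, 67.9 to 71.9) had a peak of at least one of these proteins, and 131 (6.29%) had both. The same was true of 42.4% and 3.65% of all union regions, which need not be in as many DHS lists. RNA Pol II made up most of this count, at 1089 regions on day 0, against 498 with C/EBPbeta. The 131 with both are counted in each. A peak list from bulk cells does not tell whether few cells hold much signal or many hold little. "Opened by 4 hours" therefore describes the DHS lists and not the first sign of bound protein at these sites.

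RNA Pol II was the most frequent protein among the 13 ChIP-seq lists. It was listed on day 0 at 1089 regions (52.3%, 50.1 to 54.5) and at 4 hours at 1003 (48.2%, 46.0 to 50.3). Across all union regions, these lists reached 19.8% and 18.1%. At 900 regions (43.2%, 41.1 to 45.4) RNA Pol II was listed at both times, at 189 (9.08%) on day 0 alone, at 103 (4.95%) at 4 hours alone, and at 890 (42.7%, 40.6 to 44.9) at neither. Thus 57.3% had RNA Pol II at some time, against 23.0% of all union regions, and most of those 57.3% held it before and after induction. By choice the set is in the DHS lists of 4 hours and all later times. Union regions need not be, and whether this bears on the higher shares was not tested. Of the 225 regions chosen at equal DHS list length, 79.1% had RNA Pol II on day 0 and 74.2% at 4 hours. That selection keeps the widest peaks, and RNA Pol II was more frequent at longer peaks within the set, so these shares do not show what lists of equal depth would give. Regions that first showed RNA Pol II at 4 hours, the time they entered the DHS list, were the smallest of the 4 classes. The 4 classes were not counted over all union regions, so whether their order is particular to the set was not tested.

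C/EBPbeta, by contrast, was found at these regions less often than at open regions at large, though on day 2 within the interval. It lay at 498 of them on day 0 (23.9%, 22.1 to 25.8), 464 at 2 hours (22.3%, 20.5 to 24.1), 594 at 4 hours (28.5%, 26.6 to 30.5) and 498 on day 2 (23.9%, 22.1 to 25.8). The shares of all union regions were 26.3%, 26.9%, 37.4% and 25.5%. This order did not hold throughout. Among regions with RNA Pol II the set was lower than union regions at all 4 times, and among those without it higher, as given below. At some time C/EBPbeta was at 694 (33.3%), against 44.4% of all union regions. The 4 hours list is the longest of the 4 (29957 peaks, the others 19703 to 21486), and with the lists cut to equal length by width the 4 hours share was 22.5%. Counting only peaks wider than their list's median, the shares were 15.2%, 13.6%, 18.4% and 17.4%.

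PPARgamma was found here more often than at open regions at large. It lay at 192 regions on day 2 (9.22%, 8.01 to 10.5) and at 348 on day 6 (16.7%, 15.1 to 18.4), against 5.32% and 7.73% of all union regions. On either day it was at 371 (17.8%), against 9.23%. This excess did not hold among the 1192 regions with RNA Pol II. There the shares were 2.52% (1.70 to 3.57) on day 2 and 6.21% (4.91 to 7.73) on day 6. Union regions with RNA Pol II had 2.47% and 5.12%, both within those intervals. By choice every region of the set has a DHS peak on day 2 and day 6, the days PPARgamma was profiled. Union regions need not, so the higher shares cannot be told apart from this choice. Both days listed PPARgamma at 169 regions, day 2 alone at 23 and day 6 alone at 179. Of the 192 day 2 sites, 88.0% (82.6 to 92.2) were therefore listed again on day 6. Among all union regions with PPARgamma on day 2 this share was 71.8% (69.9 to 73.5). Those regions need not have a day 6 DHS peak, which the choice of the set requires. The day 6 list is longer (5493 peaks, day 2 has 3168), and with both lists cut to equal length by width the day 6 share was 12.9%.

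RNA Pol II without C/EBPbeta or PPARgamma was the most common combination, at 936 regions (45.0%), against 16.6% of all union regions. C/EBPbeta with PPARgamma and no RNA Pol II was at 243 (11.7%), against 5.89%. C/EBPbeta alone was at 235 (11.3%), where all union regions had 32.7%, and PPARgamma alone at 48 (2.31%). RNA Pol II was with C/EBPbeta at 176 regions, with PPARgamma at 40 and with both at 40. None of the 3 was at 364 regions (17.5%). PPARgamma alone and the combinations named after it were not counted over all union regions. No ChIP-seq peak of any kind was at 357 (17.1%), compared with 34.7% of all union regions, which need not be in as many DHS lists.

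**Figure D1:**
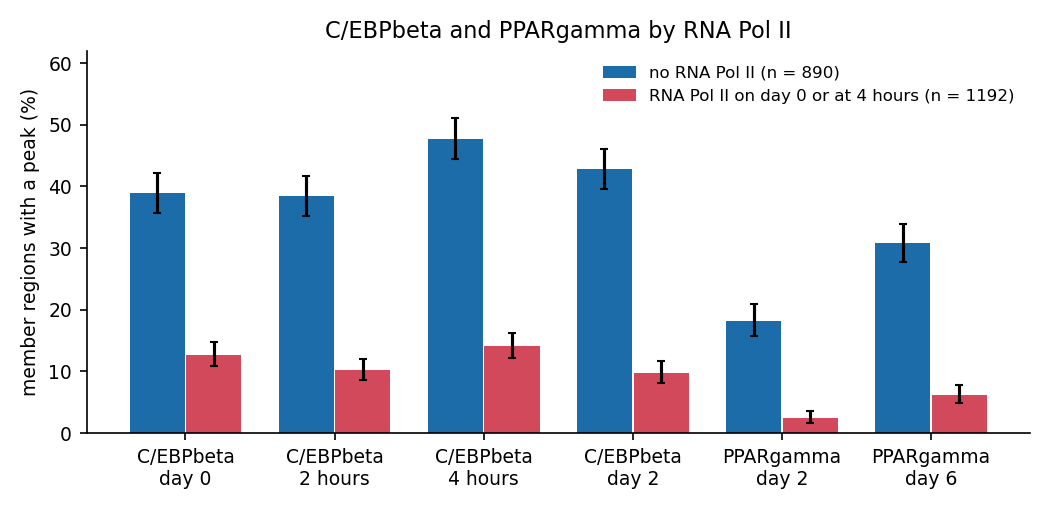
Percent of member regions (vertical axis) with a peak of C/EBPbeta or PPARgamma in each list (horizontal axis), for the 890 regions without RNA Pol II and the 1192 with RNA Pol II on day 0 or at 4 hours; bars are shares and error bars exact 95% intervals over regions. In each of the 6 lists the regions without RNA Pol II are higher and the intervals do not overlap, as for C/EBPbeta at 4 hours with 47.8% and 14.2%.

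Among the 890 regions without RNA Pol II, C/EBPbeta was listed at 38.9% on day 0 (35.7 to 42.2), 38.4% at 2 hours, 47.8% at 4 hours (44.4 to 51.1) and 42.8% on day 2. Among the 1192 with RNA Pol II, the same lists gave 12.8%, 10.2%, 14.2% (12.2 to 16.3) and 9.82%. The difference at 4 hours was 33.6 percentage points (29.7 to 37.3). PPARgamma followed the same division. It was at 18.2% of regions without RNA Pol II on day 2 (15.7 to 20.9) and 30.8% on day 6 (27.8 to 33.9), against 2.52% and 6.21% of regions with it, a day 6 difference of 24.6 percentage points (21.3 to 27.9). Over all union regions with RNA Pol II, C/EBPbeta was at 18.7%, 16.1%, 21.3% and 12.9% at its 4 times and PPARgamma of day 6 at 5.12%. All union regions without RNA Pol II, 35997 in number, had C/EBPbeta in 28.6%, 30.1%, 42.2% and 29.3% of cases, and 8.51% had PPARgamma on day 6. Set against that background, the 890 regions were higher for both factors, by the wider margin for PPARgamma. The choice of regions requires a DHS peak on day 6, which the background does not.

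Regions with RNA Pol II at only one time lay between these groups for C/EBPbeta. At 4 hours it was at 12.7% of the 900 regions with RNA Pol II at both times, 15.9% of the 189 with day 0 alone (11.0 to 21.9), 24.3% of the 103 with 4 hours alone (16.4 to 33.7) and 47.8% of the 890 with neither. PPARgamma of day 6 was at 5.33%, 9.52%, 7.77% and 30.8% of them. For both factors the intervals of neighbouring classes among the first 3 overlap, and that of the regions with neither lies above them all.

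C/EBPbeta was listed at all 4 times at 344 of the 694 regions that had it (49.6%, 45.8 to 53.4), and at some but not all of them at the others. The 344 make up 16.5% of the set, near the 15.3% of all union regions, while among union regions with C/EBPbeta the share listed at all 4 times was 34.5% (33.8 to 35.1). The next combination was far smaller, with 56 regions that had it at 4 hours alone. It was listed at 2 hours, 4 hours and day 2 at 50 regions, on day 0 alone at 48 and on day 2 alone at 28. Of the 498 regions with C/EBPbeta on day 0, 78.9% (75.1 to 82.4) had it at 2 hours, 87.1% (83.9 to 90.0) at 4 hours and 75.9% (71.9 to 79.6) on day 2. For all union regions with C/EBPbeta on day 0 these shares were 76.7%, 85.3% and 63.8%, and the intervals overlap except for day 2.

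Taking each region's first listing, C/EBPbeta was first seen on day 0 at 498 regions, at 2 hours at 71, at 4 hours at 97 and on day 2 at 28. Of the 694 regions with the factor, 569 (82.0%, 78.9 to 84.8) therefore had it on day 0 or at 2 hours, times at which the choice of regions allows no DHS peak. They are 27.3% of the 2082, below the 33.0% of all union regions, and among union regions with C/EBPbeta 74.3% had it by 2 hours. In the 890 regions without RNA Pol II the first listings were 346, 49, 66 and 17.

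**Figure D2:**
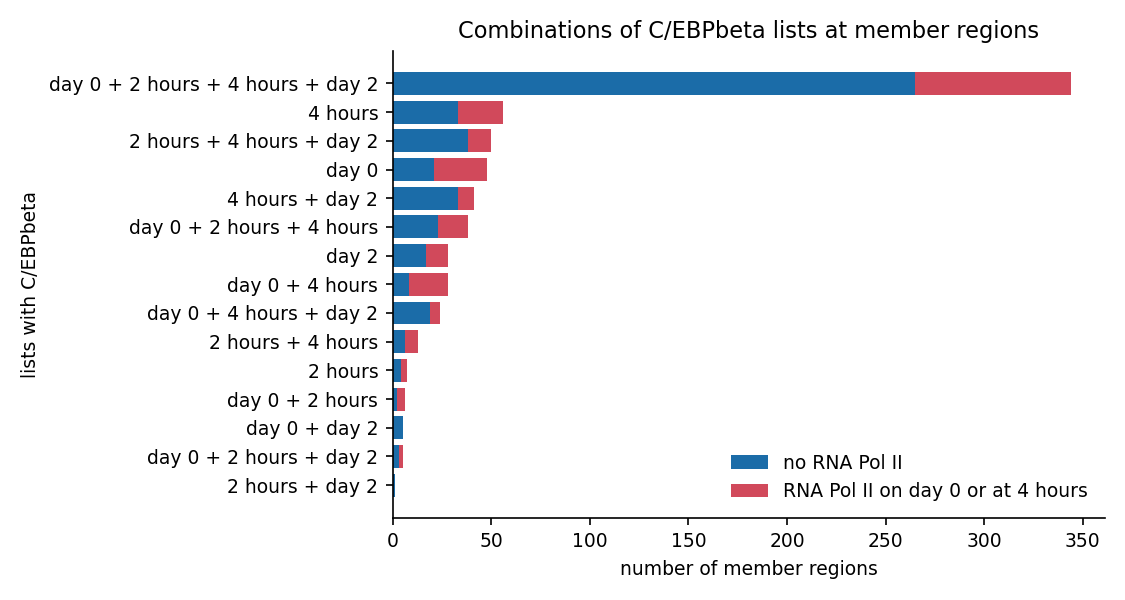
Number of member regions (horizontal axis) with each combination of C/EBPbeta lists (vertical axis), split by colour into regions without and with RNA Pol II; the 1388 regions without C/EBPbeta are not drawn. The bar for all 4 lists reaches 344 regions, and 265 of these have no RNA Pol II.

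PPARgamma was concentrated at regions where C/EBPbeta had been. Of the 666 regions with C/EBPbeta on day 0, at 2 hours or at 4 hours, 23.4% (20.3 to 26.8) held PPARgamma on day 2 and 37.7% (34.0 to 41.5) on day 6. Of the 1416 regions without early C/EBPbeta, 2.54% (1.79 to 3.50) and 6.85% (5.59 to 8.29) did. The differences were 20.9 (17.7 to 24.3) and 30.8 (27.0 to 34.8) percentage points. Over all union regions the shares with early C/EBPbeta were 8.31% and 10.7%, and without it 3.18% and 5.60%. Those regions need not have a DHS peak on day 2 or day 6, as every region of the set does. Within the 890 regions without RNA Pol II, PPARgamma of day 6 was at 47.1% (42.4 to 51.7) of the 461 with early C/EBPbeta and at 13.3% (10.2 to 16.9) of the other 429.

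The number of C/EBPbeta lists made less difference than having one at all. In regions without RNA Pol II, PPARgamma of day 6 was at 10.9% (8.08 to 14.3) of those with no C/EBPbeta list, and at 40.0%, 45.5%, 47.0% and 50.9% (44.7 to 57.1) of those with 1, 2, 3 and 4 lists. For day 2 these shares were 4.37%, 21.3%, 27.3%, 30.1% and 33.2%. The intervals for 1 to 4 lists overlap, and each lies above that for none.

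**Figure D3:**
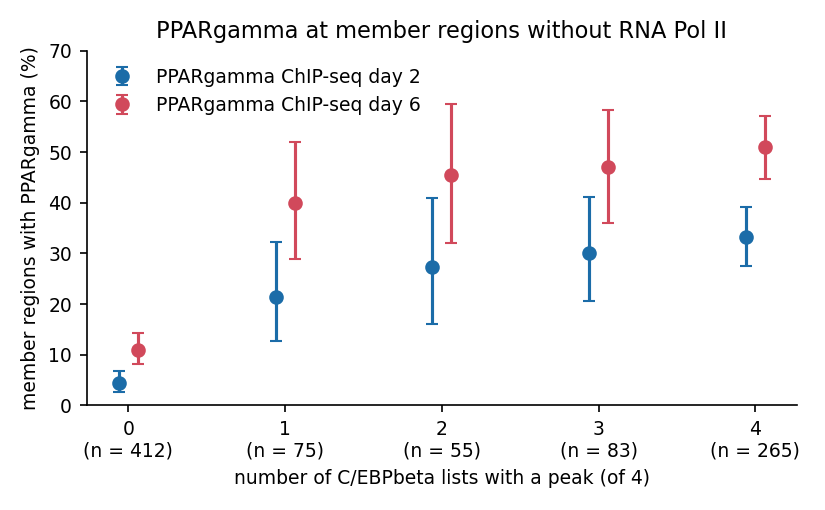
Percent of member regions without RNA Pol II that hold PPARgamma (vertical axis) by the number of the 4 C/EBPbeta lists with a peak there (horizontal axis), for PPARgamma of day 2 and day 6; points are shares and bars exact 95% intervals over regions. The step from 0 to 1 list, from 10.9% to 40.0% on day 6, is the widest, and the points from 1 to 4 lists have overlapping intervals.

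Seen from PPARgamma, 165 of the 192 day 2 sites (85.9%, 80.2 to 90.5) and 265 of the 348 day 6 sites (76.1%, 71.3 to 80.5) had C/EBPbeta at some time. Among all union regions with PPARgamma these shares were 81.3% (79.7 to 82.8) and 70.6% (69.1 to 72.1), and the intervals overlap those of the set. On day 2, when both factors were profiled, 150 of the 192 PPARgamma sites (78.1%) held C/EBPbeta as well, against 75.8% of all PPARgamma sites of that day. RNA Pol II had been at 15.6% of the day 2 sites and 21.3% of the day 6 sites, and at 10.7% and 15.3% of such sites in all union regions. The remaining 83 day 6 sites (3.99% of all 2082) had PPARgamma and no C/EBPbeta list.

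The other early factors were less frequent in the set as a whole than in all union regions. C/EBPdelta, a close relative of C/EBPbeta, was at 2.45% on day 0 and 17.9% (16.3 to 19.6) at 4 hours, against 4.58% and 24.5% of all union regions. GR, the receptor for dexamethasone, was at 74 regions (3.55%, 2.80 to 4.44), Stat5a, a factor activated by hormone and cytokine receptors, at 68 (3.27%, 2.55 to 4.12), and RXR, the partner of PPARgamma, at 41 (1.97%, 1.42 to 2.66). All union regions held them in 7.66%, 9.09% and 3.88% of cases. They too were mostly at regions without RNA Pol II, which had 68 of the 74 GR, 56 of the 68 Stat5a and 40 of the 41 RXR sites. Within the 890 regions without RNA Pol II, C/EBPdelta of 4 hours was at 30.4% (27.4 to 33.6), GR at 7.64% (5.98 to 9.59), Stat5a at 6.29% (4.79 to 8.09) and RXR at 4.49% (3.23 to 6.07). Union regions without RNA Pol II had them in 27.5%, 9.12%, 10.7% and 4.58% of cases, so that there Stat5a alone was below the background beyond its interval. Of the 594 regions with C/EBPbeta at 4 hours, C/EBPdelta was at 58.2% (54.2 to 62.3), GR at 11.6%, Stat5a at 10.6% and RXR at 6.90%. All union regions with C/EBPbeta at 4 hours had C/EBPdelta in 61.1%, GR in 19.4% and Stat5a in 20.5% of cases, and 1749 of these 17465 regions had RXR. At the 192 regions that later held PPARgamma on day 2, RXR had been listed at 28 (14.6%, 9.91 to 20.4) and GR at 39 (20.3%, 14.9 to 26.7), against 18.1% and 22.5% of all PPARgamma sites of day 2.

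The class of regions most like these was listed at 4 hours, day 1 and day 2 as well and differed by being absent on day 6 (4279 regions). The day 6 list that divides the 2 classes is shorter than that of day 2 (11936 against 25097 peaks). The 4 hours DHS peaks of the class gone by day 6 were also shorter (median 566 bp against 625.5 bp). Whether list or peak length bears on the differences below was not tested. RNA Pol II of day 0 was at 18.1% (17.0 to 19.3) of that class, which put the regions kept on day 6 higher by 34.2 percentage points (31.7 to 36.6). C/EBPbeta ran the other way. At 4 hours it was at 52.1% (50.6 to 53.6) of the regions gone by day 6, and the regions kept were 23.6 percentage points lower (21.1 to 26.0 lower). At day 0, 2 hours and day 2 the class held C/EBPbeta in 37.6%, 40.2% and 41.4% of cases, each higher than in the regions kept. These differences were smaller among regions without RNA Pol II (890 kept, 3354 gone). There the kept regions differed by -3.49 points on day 0, with an interval that includes 0 (-7.06 to 0.154), by -8.05 at 2 hours (-11.6 to -4.41), by -12.2 at 4 hours (-15.9 to -8.55) and by -5.73 on day 2 (-9.36 to -2.04). GR (11.3%), Stat5a (11.5%) and RXR (6.05%) were also more frequent in the class gone by day 6, with intervals that do not overlap.

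PPARgamma set the kept regions apart from that class most clearly where RNA Pol II was absent. On day 6 it was at 7.43% (6.66 to 8.26) of all regions gone by day 6, 9.28 percentage points less than in those kept (7.53 to 11.1). PPARgamma of day 6 was profiled on the day that separates the 2 classes, so the DHS and ChIP-seq lists share that time. On day 2, when both classes were listed as open, the shares were 9.22% and 7.43%, a difference of 1.79 points (0.360 to 3.31). Without RNA Pol II (890 and 3354 regions) the day 2 shares were 18.2% (15.7 to 20.9) and 8.80% (7.86 to 9.80), and the day 6 shares 30.8% and 8.38% (7.46 to 9.37). Restricted further to early C/EBPbeta sites without RNA Pol II, PPARgamma of day 2 was at 29.7% (25.6 to 34.1) of 461 kept regions and 12.4% (11.1 to 13.9) of 2121 regions gone by day 6. Without early C/EBPbeta it was at 5.83% (3.81 to 8.48) of 429 and 2.51% (1.72 to 3.55) of 1233, so the contrast by early C/EBPbeta on day 2 was present in both classes.

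Regions open at all times except 2 hours (2592) and at all 6 times (4098) were richer in RNA Pol II. On day 0 it was at 71.8% (70.1 to 73.6) and 65.8% of them, higher than in the 2082 regions by 19.5 and 13.5 points. PPARgamma of day 6 was at 5.17% (4.35 to 6.09) and 10.8% (9.88 to 11.8), lower by 11.5 and 5.91 points. Among regions with RNA Pol II it was at 3.78% and 8.09% (7.12 to 9.15), against 6.21% (4.91 to 7.73) in the set. There the always open class was thus higher, with overlapping intervals. Without RNA Pol II the shares were 9.97% and 17.2%, against 30.8% in the set. For C/EBPbeta of 4 hours the 2082 regions (28.5%) lay between the class missing only at 2 hours (14.9%, 13.6 to 16.4) and the class always open (37.8%, 36.3 to 39.3). C/EBPbeta of day 2 was at 23.9% here and at 1023 of the 4098 always open regions (23.6 to 26.3%), and that difference of -1.04 points (-3.28 to 1.24) has an interval that includes 0. It changed sign in 200 bp windows (0.482 points) and with only the wider ChIP-seq peaks (0.159 points).

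**Figure D4:**
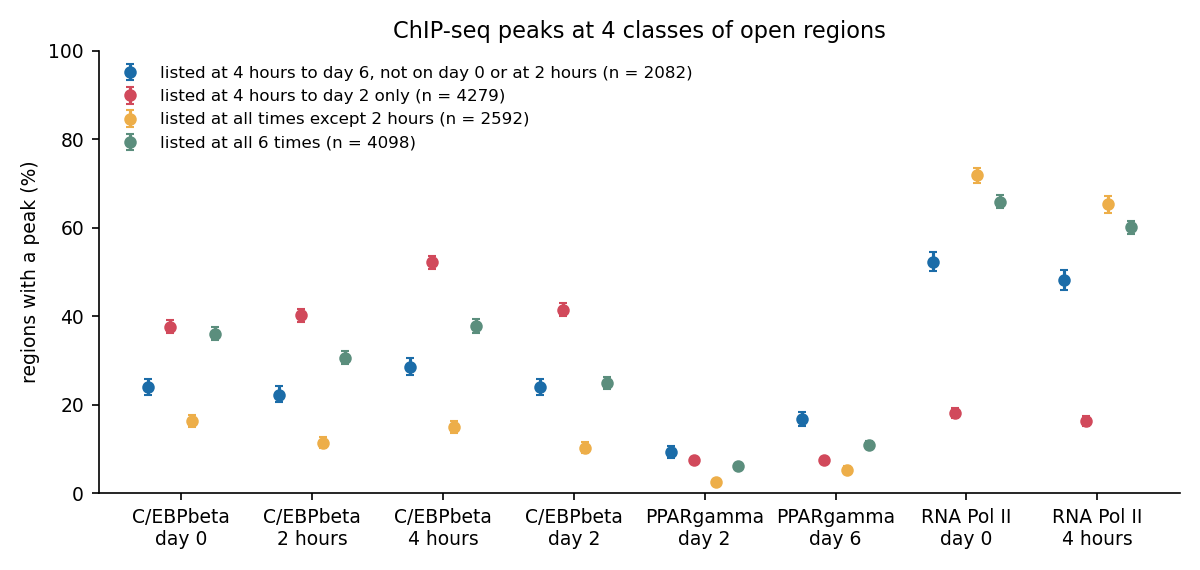
Percent of regions with a peak (vertical axis) in each C/EBPbeta, PPARgamma and RNA Pol II list (horizontal axis) for the 2082 member regions and 3 classes of DHS regions with other time courses; points are shares and bars exact 95% intervals over regions. Over all regions of each class, the members have the highest PPARgamma shares, 9.22% on day 2, where the interval overlaps that of the class gone by day 6, and 16.7% on day 6. Among regions with RNA Pol II, not drawn apart, the always open class was higher on both days, with overlapping intervals. For RNA Pol II the members lie between the class gone by day 6 and the 2 classes open on day 0.

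The DHS peaks of the set had longer medians than the whole lists at 4 hours, day 1 and day 2, and a shorter one on day 6. Their medians were 625.5 bp at 4 hours, 562 bp on day 1, 627 bp on day 2 and 433 bp on day 6, and those of the whole lists 599, 508, 616 and 484 bp. The class missing only at 2 hours and the class always open had longer peaks, with medians of 719 and 885 bp at 4 hours and 507 and 591 bp on day 6. At 1908 regions (91.6%) each of the 4 lists held exactly 1 peak. The day 6 peak was shorter than the 4 hours peak at 1910 regions (91.7%). The day 1 and day 6 lists go down to 150 bp while the other 4 DHS lists end at a higher minimum, and 194 regions (9.32%) had a day 6 peak below that minimum. Peak lengths of day 1 and day 6 are thus not on one footing with the others, and whether the difference in minimum bears on the shorter day 6 peaks was not tested. Regions with RNA Pol II had the longer peaks at 4 hours (median 666 bp against 574 bp), while on day 2 the medians were 633 and 619 bp.

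RNA Pol II and PPARgamma went opposite ways with that length. In 4 groups of regions ordered from short to long 4 hours peaks, RNA Pol II of day 0 was at 33.1%, 43.4%, 58.0% and 74.8% of regions. PPARgamma of day 6 was at 25.7% of the shortest group and 12.3% of the longest. C/EBPbeta of 4 hours stayed between 26.5% and 31.0%. These groups were not divided by RNA Pol II. The fall of PPARgamma with length thus cannot be told apart from its lower share at regions with RNA Pol II, which had longer peaks. A longer region gives more room for overlap. In 200 bp around the middle of the 4 hours peak the shares over the set were 49.4% for RNA Pol II of day 0, 15.6% for PPARgamma of day 6 and 26.1% for C/EBPbeta of 4 hours.

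Of C/EBPbeta, PPARgamma and RNA Pol II, C/EBPbeta sat nearest to the middle of the 4 hours DHS peak. Its 4 hours peaks had their middle a median of 66.5 bp (quartiles 29.6 and 163) from that of the 4 hours DHS peak, and 63.1% lay within 100 bp. In regions without RNA Pol II the median was 50.5 bp. GR, at 74 regions, was about as central, with a median of 69 bp and 64.9% within 100 bp. PPARgamma of day 6 lay a median of 112.5 bp away (95.8 bp without RNA Pol II), and RNA Pol II 102 bp on day 0 and 131 bp at 4 hours. On day 2, the time both factors share, the medians were 71.5 bp for C/EBPbeta and 98.5 bp for PPARgamma. Lists of other times were thus set against a DHS peak of 4 hours, and distances from the day 6 DHS peak were not measured. PPARgamma peaks were also longer (median 872 bp on day 6 against 621 bp for C/EBPbeta at 4 hours), which limits how finely their middle can be placed.

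**Figure D5:**
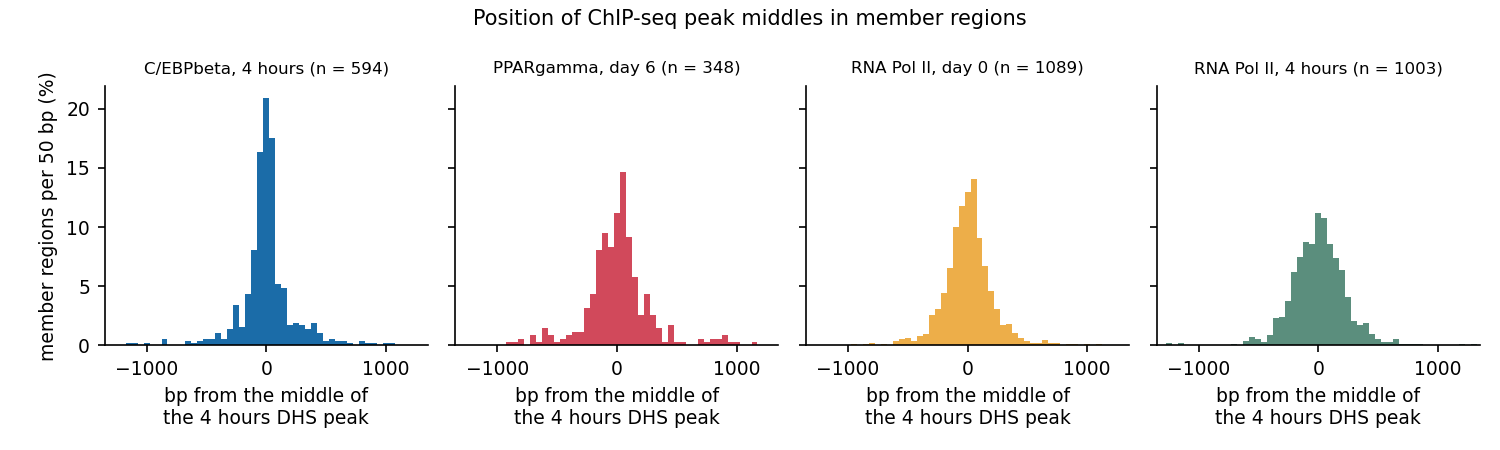
Position of the ChIP-seq peak middle relative to the middle of the 4 hours DHS peak in bp (horizontal axis) as the percent of member regions with that peak per 50 bp (vertical axis), in 1 panel per list; strand is unknown, so left and right carry no meaning. The C/EBPbeta panel is the narrowest, with a median distance of 66.5 bp, and that of RNA Pol II at 4 hours is wide, at 131 bp.

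The regions were spread over the genome. Of the 2082, 1973 lay over 10 kb from any other, 53 groups of 2 and 1 group of 3 were closer. As a share of the union regions on a chromosome they made up 6.85% (5.40 to 8.55) on X, the highest, and 2.92% (2.30 to 3.65) on chromosome 8, the lowest. On X, 53 of 72 (73.6%) had RNA Pol II and 12 (16.7%) C/EBPbeta. On chromosome 8, 38 of 75 (50.7%) had RNA Pol II and 27 (36.0%) C/EBPbeta. The regions without RNA Pol II lay a median of 34626 bp from the nearest RNA Pol II peak, and 202 of the 890 (22.7%) within 10 kb of one.

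Single regions show each kind of site. Apart from regions without any ChIP-seq peak, these kinds were not counted over all union regions. Their counts describe the set alone. Positions are on mouse build mm9, counted from 1, and no gene is named because no mm9 annotation was used here. Within each kind, the regions with the longest 4 hours DHS peaks are given. C/EBPbeta at all 4 times and PPARgamma on both days, with no RNA Pol II, was found at 81 regions (3.89%). The first is on chromosome 4 at 71859197 to 71860466. Its longest DHS peaks measured 1270 bp at 4 hours, 606 bp on day 1, 765 bp on day 2 and 517 bp on day 6, and C/EBPdelta was there at 4 hours too. The second, on chromosome 1 at 178943469 to 178944693, lay 185382 bp from any day 0 or 2 hours DHS peak and also held C/EBPdelta, Stat5a and RXR at 4 hours. The third, on chromosome 5 at 28363543 to 28365193, was among the few with C/EBPdelta already on day 0, and its DHS peak was longer on day 2 (1639 bp) than at 4 hours (1163 bp).

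RNA Pol II at both times without C/EBPbeta or PPARgamma was the commonest of the kinds named here, at 727 regions (34.9%). The longest 4 hours peak of this kind belongs to a region on chromosome 8 (81031721 to 81034673). Next come a region on chromosome 12 (36883202 to 36884968) and another on chromosome 11 (79516820 to 79518628). These 3 had no peak in any further ChIP-seq list. Their DHS peaks measured 1861, 1767 and 1746 bp at 4 hours and 820, 633 and 475 bp on day 6, and the closest day 0 or 2 hours DHS peak was 44089 bp or more away.

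Regions with all 8 lists of the 3 proteins numbered 3 (0.144%). The one on chromosome 2 at 79877978 to 79879650 held 10 of the 13 ChIP-seq lists, with C/EBPdelta and RXR of 4 hours beside the 8. The next, on chromosome 1 at 52175571 to 52177005, held just the 8. PPARgamma of day 6 without C/EBPbeta was longest on chromosome 19 at 3324109 to 3325888, which had PPARgamma on day 2 as well, and on chromosome 6 at 17256887 to 17258286, which had it on day 6 alone. Both of these held RNA Pol II on day 0 and at 4 hours, while 45 of the 83 regions of this kind had it at neither time. Of the 357 regions without any ChIP-seq peak, the longest are on chromosome 4 at 147481723 to 147483098 and chromosome 11 at 98803260 to 98804619. Their day 6 DHS peaks measured 159 and 179 bp, after 1331 and 1282 bp at 4 hours.

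The single group of 3 regions spaced by 10 kb or less lies on chromosome 9 at 44291609 to 44297493, a span of 5885 bp. All 3 of its regions held C/EBPbeta at 4 hours and RNA Pol II at 4 hours, 2 had C/EBPbeta on day 0, 2 held PPARgamma on each of day 2 and day 6, and 1 had RNA Pol II on day 0. The first group of 2 by position, on chromosome 1 at 10027600 to 10030052, had RNA Pol II at both times in both regions and neither C/EBPbeta of day 0 or 4 hours nor PPARgamma. The 109 regions within 10 kb of another held C/EBPbeta of 4 hours in 28.4% of cases, and the isolated ones in 28.5%. For PPARgamma of day 6 these shares were 18.3% (11.6 to 26.9) and 16.6%, so that the intervals overlap.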

How the data were processed

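For 19 libraries (6 DHS-seq, 13 ChIP-seq) the authors deposited a peak list each, which gives chromosome, start and end and no score, height or count. Build mm9 is named in the submitters' processing notes. The peak caller, its threshold, the read depth and any use of the input library, which was not analysed here, are not given in the sources used here. The number of peaks per list stands in for depth.

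Starts were read as counted from 0 and are printed counted from 1. DHS peaks overlapping by at least 1 bp were merged, and a ChIP-seq peak was counted at a region when they overlapped by at least 1 bp. Distances use the longest 4 hours DHS peak of a region. Regions were named by the longest 4 hours DHS peak within each kind, passing over chromosome 18, and chromosomes by highest and lowest share. The members, classes and lists were chosen with earlier results of these data known. Overlap code was tested on simulated data. Intervals were computed in SciPy 1.17.1 under Python 3.11.15, arrays were handled in NumPy 2.4.6, and figures were drawn in Matplotlib 3.10.9. No mm9 genome or annotation was used here, so sequences and gene names are not given. Alternatives changed the overlap, the window, the width or length of the lists and the choice of members. The alternatives added after seeing the data restrict the comparison with regions gone by day 6, and the division by early C/EBPbeta, to regions without RNA Pol II, and repeat the contrast between regions with and without RNA Pol II in 200 bp windows and between the quartiles of peak length.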

Additional observations from a re-analysis of the deposited data

How the results depend on the processing

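The cause of no change below was tested, except that shortened lists hold fewer peaks and narrower windows less room by construction. Of 202 alternative values, 147 stayed within the interval or tolerance of the reported value, 53 moved beyond it and 2 changed sign. Of 134 differences between classes of regions or between groups within the set, 132 kept their sign. The exceptions were C/EBPbeta of day 2 against the regions open at all 6 times, where the difference became 0.482 points in 200 bp windows and 0.159 points with only the ChIP-seq peaks wider than their list's median. The number of regions fell to 1158 with only the DHS peaks wider than their list's median and to 225 at equal DHS list length, and those 225 held C/EBPbeta of day 0 in 27.1% and RNA Pol II in 79.1% on day 0 and 74.2% at 4 hours. In 200 bp around the middle of the 4 hours DHS peak, C/EBPbeta was at 20.4% at 2 hours, 26.1% at 4 hours and 21.6% on day 2, and RNA Pol II at 49.4% on day 0 and 45.7% at 4 hours. With a ChIP-seq peak allowed within 500 bp, C/EBPbeta was at 26.0%, 24.7%, 31.4% and 26.4% on day 0, at 2 hours, at 4 hours and on day 2. With only the wider ChIP-seq peaks it was at 15.2%, 13.6%, 18.4% and 17.4%, PPARgamma at 6.29% and 11.5%, and RNA Pol II at 39.2% and 32.8%. Differences from the regions gone by day 6 were then -18.8 points for C/EBPbeta of 4 hours and 26.6 for RNA Pol II of day 0, and from those missing only at 2 hours 10.9 for C/EBPbeta of 4 hours and 8.51 for PPARgamma of day 6. With lists of one antibody at equal length, C/EBPbeta of 4 hours was at 22.5% and PPARgamma of day 6 at 12.9%, with differences of -20.9 points from the regions gone by day 6 and 9.53 from those missing only at 2 hours. Without RNA Pol II, C/EBPbeta was at 38.9%, 38.4%, 47.8% and 42.8% and PPARgamma at 18.2% and 30.8% of regions, and the differences from the regions gone by day 6 were -12.2 for C/EBPbeta of 4 hours and 22.4 for PPARgamma of day 6. Among regions between the quartiles of 4 hours peak length, those without RNA Pol II exceeded those with it by 38.0 points for C/EBPbeta of 4 hours. No paired analysis was possible because each group holds 1 library.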
